A study of Mus musculus with 4 samples.

Results

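The 10 genes described here belong to the cytosolic and mitochondrial heat shock response and were followed through the cells of the inflamed mouse colon. They are Hspa1a, Hspa1b, Dnajb1, Dnaja1, Hsph1, Hsp90aa1, Hspa8, Hspd1, Hspe1 and Hspb1, 10 of 32285 genes in the count tables, and all 10 were found by symbol. They were chosen because the level of Hspa1b in macrophages had one of the widest ranges between samples, so that range is a description and was given no test. Leukocytes carrying CD45, a surface protein of blood cells, had been selected with magnetic beads from the lamina propria of Mus musculus colons and sequenced one cell at a time with the 10x Genomics droplet method. All mice had received DSS (dextran sulfate sodium), an irritant of the colonic epithelium, at 2% in drinking water for 7 days, with tissue taken on day 8, and each of the 4 samples mixed 3 mice. The labels give an age of 10 weeks and the study's legend 8 weeks. The study used AhR-null and WT mice on a C57BL/6 background, but the labels number the 4 samples without a genotype, so values are given sample by sample, medians and ranges over the 4 samples are descriptions of all samples read, and no samples were tested against each other.

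Heat shock proteins are chaperones that bind unfolded proteins. HSP70 proteins work in cycles with HSP40 partners, which hand them their substrates, and with HSP110, which releases the spent nucleotide; HSP90 takes over later in folding, and the HSP60 and HSP10 chamber folds proteins inside mitochondria. Cells keep a constitutive supply of most of these, while a few, above all the inducible HSP70 genes Hspa1a and Hspa1b, are switched on by heat shock factor 1 when proteins unfold, with heat, with oxidants and also when tissue is handled. The factor binds repeated units of the letters GAA and their reverse TTC, the heat shock element.

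Promoter sequence was taken from RefSeq (GRCm38.p6), which listed 8 of the 10 members. Hsp90aa1 and Hspa8 were not listed. The stretches below belong to the genes with the widest range (Hspa1a, Hspa1b), to a pair of mitochondrial chaperones read from 1 shared promoter in opposite directions (Hspe1, Hspd1), and to the member most restricted to stromal classes (Hspb1). They read 5′ to 3′ along the gene, and capitals mark heat shock element letters, either GAANNTTC or TTCNNGAA, with overlapping matches joined.
Hspa1a, chr17:34972157-34972306, minus strand: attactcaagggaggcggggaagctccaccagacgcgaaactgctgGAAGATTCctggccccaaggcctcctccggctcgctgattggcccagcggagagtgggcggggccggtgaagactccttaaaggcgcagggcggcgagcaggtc
Hspa1b, chr17:34959239-34959388, minus strand: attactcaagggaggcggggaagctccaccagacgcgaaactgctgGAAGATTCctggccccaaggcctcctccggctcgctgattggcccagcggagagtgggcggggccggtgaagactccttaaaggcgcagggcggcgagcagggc
Hspe1, chr1:55088048-55088077, plus strand: gccacggtccgTTCTAGAACCTTCCGGAAg
Hspb1, chr5:135887769-135887859, plus strand: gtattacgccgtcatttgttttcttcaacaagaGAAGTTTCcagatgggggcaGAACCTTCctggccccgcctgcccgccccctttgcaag

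The Hspa1a and Hspa1b stretches ended at the last base before the start site and differed at 1 of 150 bases. Over 250 bases before the start the pair differed at 3, and the genes lie 9951 bases apart on chromosome 17. Both held GAANNTTC with its first base 104 bases before the start. A 2-unit element, searched on both strands of the 250 bases before each start, was found in 8 of 13 listed start sites of the members, against 12.8% of 32851 start sites in the genome, and 7 of 8 members had at least 1 such site. A 3-unit element, the same letters followed after 2 bases by 1 more unit in turn, was found for Hspd1 and Hspe1 and in 0.466% of all start sites. The Hspe1 stretch shows it, and also lies within an annotated exon of Hspd1. Hspe1 and Hspd1 share a promoter, and Hspa1a and Hspa1b are near copies over this stretch. The member counts above are therefore not counts of independent sites. These are matches of letters and not measured binding, and the lack of a match at Dnajb1 concerns this window and these letters only.

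Each cell was placed in a class by counting the fixed marker genes it held. A cell needed at least 3 markers of a class and at least 2 more than of any other lineage, and no heat shock gene was a marker. Of 45229 deposited cells, 43432 held at least 200 genes and under 20% mitochondrial transcripts. The samples held 72509408 to 135516016 unique molecular identifiers (UMIs, 1 per captured transcript molecule), and pairs of samples shared 0.271% to 0.423% of cell barcodes. Between 14.0% and 22.3% of kept cells carried markers of several lineages and were left out as mixed, and 4.61% to 7.31% held too few markers. Levels are CPM, the UMIs of a gene summed over the cells of a class in a sample, divided by all UMIs of those cells and scaled to a common total. Intervals are 95% and cover counting error only, which leaves out differences between mice and between cells. A class was read in a sample where it had at least 50 cells, which gave all 4 samples for 8 classes, 2 samples for plasma, endothelial and epithelial cells, and 1 for mast cells and basophils. Macrophages numbered 1206, 1563, 1590 and 1449 cells in samples 1 to 4. Of the markers held out from gating, 3 of 4 for macrophages and 3 of 3 for fibroblasts were highest in their own class in every sample read, but only 1 of 3 for monocytes and 1 of 4 for dendritic cells. Although the sort was for CD45, its gene Ptprc was at 20.1 to 83.8 CPM in fibroblasts, 18.4 to 36.4 in endothelial cells and 26.3 to 73.8 in epithelial cells, against 1156 to 1450 in macrophages.

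The inducible HSP70 genes showed the widest differences between samples in macrophages. In macrophages Hspa1a, an inducible cytosolic HSP70 (ENSMUSG00000091971, chr17:34969190-34972156 on GRCm38, a single exon), stood at 8.50 CPM in sample 1, 67.1 in sample 2, 26.0 in sample 3 and 47.9 in sample 4. Its neighbour Hspa1b (ENSMUSG00000090877, chr17:34956436-34959238, also a single exon), which encodes a nearly identical protein, stood at 6.26, 73.3, 17.2 and 33.1 CPM in the same order. Both genes ranked the samples alike, sample 2 highest and sample 1 lowest. The highest sample exceeded the lowest 7.89-fold for Hspa1a (interval 6.49 to 9.69) and 11.7-fold for Hspa1b (9.35 to 14.9), and 25 of the 4046 genes that reached 50 CPM somewhere among the 4 samples varied more than Hspa1b. The width rests on the extreme samples: the summed range is 9.51-fold over all samples, 3.25-fold without sample 1 and 5.49-fold without sample 2. Reads from the pair can be confused, because 49.3% of the 90-base windows of the Hspa1a transcript also occur in Hspa1b, although none of those in its last 500 bases do. The sum of both genes, which avoids that split, was 14.8, 140, 43.2 and 81.0 CPM.

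**Figure D1:**
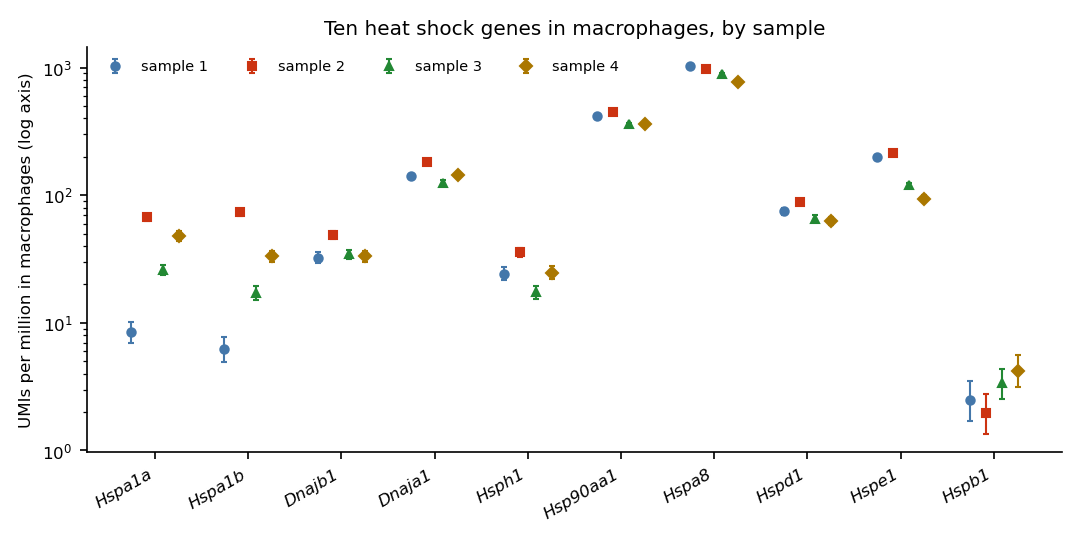
Level of each of the 10 genes in macrophages (CPM, log axis), with 1 point per sample and 95% Poisson intervals for counting error. Hspa1a and Hspa1b spread from 6.26 to 73.3 CPM between samples, whereas the 4 points of Hspa8 lie between 773 and 1023 CPM.

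With a range of 2-fold or more counted as different, 3 of the 7 members that reached 50 CPM in a sample differed in macrophages, beside 17.9% of all genes. Because the members were chosen on this range, nothing is read from that count. The third was Hspe1, the mitochondrial HSP10 lid (ENSMUSG00000073676, chr1:55088132-55091307), at 199, 213, 119 and 94.1 CPM, a ratio of 2.26, or 1.78 without sample 4. Its partner Hspd1, the HSP60 chamber (ENSMUSG00000025980, chr1:55077835-55088243), stood at 74.8, 87.9, 65.4 and 62.9 CPM, a ratio of 1.40. The HSP60 and HSP10 genes thus varied by unequal amounts between the same samples.

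The most abundant cytosolic HSP70 and HSP90 members had narrower ranges. Hspa8, the constitutive HSP70 (ENSMUSG00000015656, chr9:40800984-40810087), was at 1023, 968, 888 and 773 CPM, a 1.32-fold range. Hsp90aa1, the inducible HSP90 (ENSMUSG00000021270, chr12:110690605-110702728), was at 418, 447, 360 and 365 CPM, a 1.24-fold range. For both, the 4 samples lay close together, and neither had sample 1 as its lowest.

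Among the HSP40 partners, Dnaja1 (ENSMUSG00000028410, chr4:40722150-40737149) was at 141, 181, 125 and 144 CPM in macrophages, and Dnajb1 (ENSMUSG00000005483, chr8:83608193-83612653) was at 32.4, 48.9, 34.3 and 33.3 CPM. Hsph1, the HSP110 exchange factor (ENSMUSG00000029657, chr5:149614287-149636376), was at 24.3, 35.7, 17.4 and 24.8 CPM. Each of these genes was highest in sample 2, as Hspa1a and Hspa1b were, but over ranges of 1.44-fold, 1.51-fold and 2.05-fold. Hspb1, a small heat shock protein (ENSMUSG00000004951, chr5:135887919-135889563), was nearly absent from macrophages at 2.47, 1.96, 3.35 and 4.22 CPM. Dnajb1, Hsph1 and Hspb1 were under 50 CPM in macrophages of every sample, so they entered no count there.

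Several other quantities differed between the same samples, and their part in the Hspa1a and Hspa1b range was not tested. Macrophages of samples 1 to 4 had a median of 9043.5, 7549, 7963.5 and 6215 UMIs per cell and 2.52%, 3.09%, 3.05% and 2.93% mitochondrial UMIs. The 7 B cell gate markers summed to 816, 1842, 145 and 294 CPM in the macrophage gate, against 6982 to 7974 CPM in B cells, so some gated macrophages carried B cell transcripts. The 6 fibroblast gate markers, whose class had the highest Hspa1a and Hspa1b levels together, summed to 97.7, 39.2, 36.2 and 53.3 CPM in the macrophage gate, against 9458 to 20786 CPM in fibroblasts. Gate markers of T cells summed to 109, 526, 238 and 354 CPM there, of NK cells and ILC to 221, 511, 363 and 420, and of plasma cells to 177, 1121, 193 and 209. These sums were lowest in sample 1 and highest in sample 2, as the pair was. Those of neutrophils, dendritic cells, mast cells and basophils, endothelial and epithelial cells were not, nor were those of B cells and fibroblasts. When every cell with 2 or more markers of another lineage was left out, a choice added after seeing the data, 480, 505, 709 and 787 macrophages remained. The B cell marker sum fell to 62.6, 135, 11.5 and 26.0 CPM, as it had to when cells were left out on these markers. Hspa1a was then at 10.9, 129, 29.7 and 70.6 CPM and Hspa1b at 8.62, 145, 23.7 and 48.6 CPM. Sample 2 was again highest and sample 1 lowest. This selection also favours shallow cells, with a median of 6270.5, 4099, 5856 and 4845 UMIs per cell. In simulated data it removed every single macrophage along with the doublets, so it was not shown to give cleaner cells.

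Macrophages with resident markers carried more Hspa1a than other macrophages in every sample. Cells with at least 2 of 8 genes of long-lived tissue macrophages (among them Mrc1, Cd163 and Folr2) had 21.8, 108, 61.9 and 77.0 CPM of Hspa1a in samples 1 to 4, and cells with fewer had 5.35, 32.5, 16.6 and 28.8 CPM. The ratio ran from 2.68 to 4.06, and the lower interval bound of the smallest ratio was 2.25. Of 8 members that reached 50 CPM on a side, Hspa1a was the only 1 to pass 2-fold in all 4 samples, beside 0.509% of all genes higher and 0.0926% lower in resident-marker cells. It reached 50 CPM through the resident-marker cells alone, so it could be called in 1 direction only. For Hspa1b the ratios were 1.20, 3.72, 1.45 and 2.20, so its excess passed 2-fold in samples 2 and 4 alone. Closer to equal were Hspa8, with ratios of 1.10 to 1.22, Hsp90aa1, with 1.01 to 1.32, and Dnaja1, with 1.07 to 1.16. Dnajb1 had ratios of 2.22, 1.48, 1.55 and 1.08 in samples 1 to 4, and Hspe1 of 1.72, 1.04, 1.47 and 1.17. Hspd1 also differed by sample, at 2.62 in sample 1, 1.08 in sample 2, 2.14 in sample 3 and 1.17 in sample 4. Resident-marker cells numbered 163, 628, 283 and 478, and the part of this in the range between samples was not tested. This selection favours deeper cells. Their median was 12941, 8706, 8500 and 7490 UMIs per cell, against 8657, 6702, 7934 and 5618 in other macrophages. The part of depth in the ratios above was not tested. Summed Hspa1a and Hspa1b went from 29.0 CPM in sample 1 to 229 in sample 2 among cells with resident markers and from 11.4 to 65.0 CPM among the rest.

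**Figure D2:**
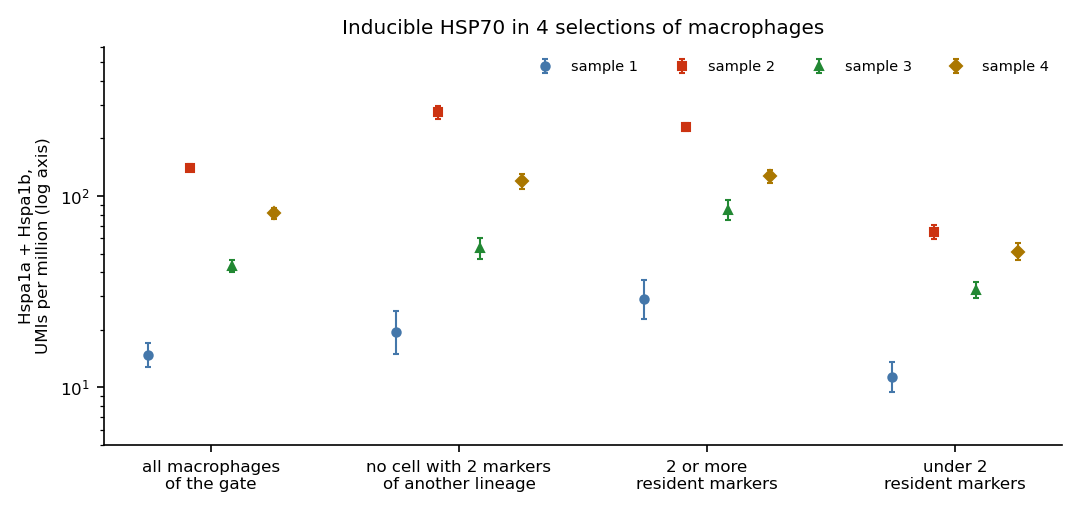
Hspa1a and Hspa1b summed (CPM, log axis) in all gated macrophages, in those with under 2 markers of another lineage, and in those with at least 2 or under 2 resident markers; points are samples and bars 95% Poisson intervals. Sample 2 is highest and sample 1 lowest in all 4 selections.

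Few macrophages held most of the inducible HSP70 transcripts. With nothing thinned, 7.21%, 28.5%, 12.0% and 18.0% of macrophages in samples 1 to 4 held at least 1 UMI of Hspa1a or Hspa1b. The top 5% of macrophages carried 85.9%, 66.9%, 82.0% and 71.3% of these UMIs. Such a share is high wherever few cells hold a UMI, and it was 100% in T cells, B cells and neutrophils of every sample. No gene of like level was set beside it, so the shares are a description. Single macrophages reached 15, 182, 44 and 53 UMIs, and 0.332%, 3.71%, 1.13% and 1.79% of cells had at least 10. Leaving out the highest 5% of cells in each sample gave a median of 20.6 CPM and a 22.4-fold range of the summed level. Those cells were picked on the measured value and held unequal shares of the UMIs, so this range says nothing about where the difference lies. Because transcripts cluster in cells, the Poisson intervals above are narrower than the variation between cells.

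After each cell was thinned to 1000 UMIs, so that depth was equal, sample 1 had 1.76% of macrophages with Hspa1a or Hspa1b (interval 1.09% to 2.67%). The share was 9.79% for sample 2 (8.34% to 11.4%), 2.85% for sample 3 (2.08% to 3.79%) and 6.39% for sample 4 (5.18% to 7.79%). B cells were read in the same way for comparison. Free RNA reaches every droplet, but no empty droplets were read. Single B cells held up to 16 and 20 UMIs of the pair in samples 1 and 2, so the B cell share does not measure free RNA alone. The part of free RNA in the macrophage share was not tested. Thinned shares of B cells were 0.577%, 0.767%, 0.946% and 0.517%, from median depths of 5462, 4441, 4667.5 and 4181 UMIs per cell. In all 4 samples the macrophage share was above that of B cells of the same sample. In sample 1 its lower bound (1.09%) was close to the upper bound of the B cell share (0.935%), and in sample 3 the intervals overlapped, since only 317 B cells gave a B cell upper bound of 2.74%.

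The fibroblasts that came through the sort had the highest Hspa1a level of any class. Their Hspa1a was at 219, 305, 264 and 269 CPM in samples 1 to 4 and their Hspa1b at 123, 220, 150 and 142 CPM, in 68, 88, 339 and 164 cells. Sample 1, where macrophages had least, was not set apart here to the same degree, and the range between samples was 1.39-fold for Hspa1a and 1.79-fold for Hspa1b. Thinned to 1000 UMIs, 21.5% to 37.5% of fibroblasts held 1 or the other. Endothelial cells, read in samples 3 and 4, followed for Hspa1a with 100 and 80.1 CPM. Their Hspa1b was at 94.2 and 214 CPM, below fibroblasts in sample 3 and above them in sample 4. Epithelial cells, read in samples 2 and 4, had 35.4 and 14.8 CPM of Hspa1a and 83.6 and 29.8 CPM of Hspa1b.

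**Figure D3:**
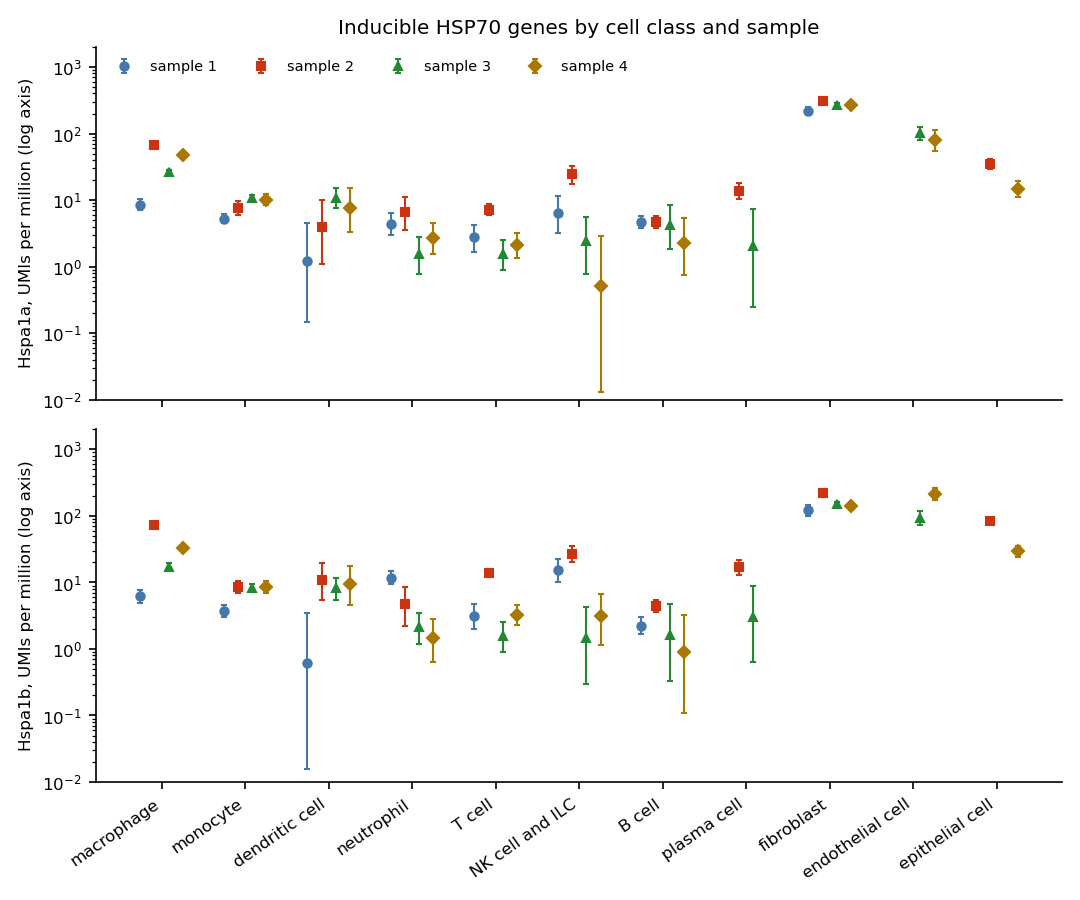
Hspa1a (top) and Hspa1b (bottom) in 11 cell classes (CPM, log axis), with 1 point per sample that had at least 50 cells of the class and 95% Poisson intervals. Fibroblasts lie between 123 and 305 CPM in all 4 samples, and macrophages spread over a wider range than monocytes.

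Ordered by the median of the summed level, fibroblasts (413 CPM) and endothelial cells (244 CPM) came first, with ranges that did not touch each other or the next class. Epithelial cells (81.8), read in samples 2 and 4, and macrophages (62.1) overlapped. In each of those samples the sum was higher in macrophages than in epithelial cells (119 and 44.6 CPM). The macrophage range (14.8 to 140) also overlapped that of every other leukocyte class in this order except B cells, which lay below it. Plasma cells (17.9), monocytes (17.5), dendritic cells (16.1), NK cells and innate lymphoid cells (ILC; 12.9), neutrophils (7.69), B cells (6.42) and T cells (5.65) overlapped from each to the next, so these ranges give no order. They take each class over the samples read for it and do not pair classes within a sample. The lymphocyte values rested on few cells. NK cells and ILC had 15.6, 27.0, 1.44 and 3.09 CPM of Hspa1b, from 85 UMIs in all. In neutrophils of sample 1, 95 of 110 UMIs came from 1 cell, which put Hspa1b at 11.8 CPM there against 1.45 to 4.67 in the other samples. Across the 8 classes read in all samples, sample 2 was highest for Hspa1a in 5 and for Hspa1b in 6, and sample 1 was lowest in 4 for each.

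Among members that reached 50 CPM in a class, Hspe1 passed 2-fold between samples in the most classes. Hspa1b had ranges of 2-fold or more in further classes, such as 8.85-fold in T cells and 4.93-fold in B cells, but at levels under that minimum. Monocytes had Hspe1 at 129, 153, 68.8 and 61.9 CPM, a 2.48-fold range. It was the only 1 of 5 members past 2-fold there, beside 16.6% of all genes. NK cells and ILC had Hspe1 at 149, 213, 115 and 75.8 CPM, again the only 1 of 5, beside 13% of all genes. In dendritic cells Hspe1 (2.13-fold) and Hspd1 (2.10-fold) passed of 5, beside 32.6% of all genes. No member passed in neutrophils (0 of 3, beside 21.6% of all genes), T cells (0 of 5, beside 11.6%), B cells (0 of 5, beside 4.81%) or plasma cells (0 of 4, beside 5.21%). In fibroblasts Hspe1 (2.91-fold), Hspb1 (2.75-fold) and Dnajb1 (2.13-fold) passed of 10, beside 30.3% of all genes, and in endothelial cells Hspa1b (2.27-fold) and Hspe1 (2.05-fold) of 10, beside 7.68%. Over the 8 classes read in all samples, Hspe1 was highest in sample 2 in 6 and lowest in sample 4 in 6, an order that is not that of Hspa1a and Hspa1b.

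Set against macrophages of the same sample, fibroblasts were at least 2-fold higher in Hspa1a, Hspa1b, Dnajb1 and the small heat shock protein gene Hspb1. A difference was counted where the ratio was at least 2-fold the same way in every sample with both classes. A gene that reached 50 CPM in 1 of the classes alone could be called in 1 direction only, so the counts that follow are descriptions. This held, among others, for Dnajb1 and Hspb1, which reached it through fibroblasts. Against other leukocytes it held for Hspa1a and Hspa1b, which reached it through macrophages of sample 2. Against neutrophils it also held for Hspd1 and Hspe1. By that rule 4 of 10 members were lower in macrophages, beside 18.9% of all genes lower and 16.9% higher. Hspb1 differed most, at 142, 267, 96.9 and 207 CPM in fibroblasts, 28.9-fold to 136-fold the macrophage level. Dnajb1 followed at 589, 568, 277 and 312 CPM, 8.06-fold to 18.1-fold. Hspa1a was 4.54-fold to 25.8-fold higher in fibroblasts, and Hspa1b by a median of 6.50-fold and at most 19.6-fold, with the largest ratio of each in sample 1. By contrast Hspa8 was 1.18-fold to 1.61-fold, Hsp90aa1 1.42-fold to 1.99-fold and Hspd1 0.904-fold to 1.15-fold the macrophage level, and none of them reached 2-fold. Hsph1 was 1.16-fold to 2.59-fold and did not pass in every sample. Dnaja1, at 350 to 381 CPM in fibroblasts, was 1.94-fold to 2.84-fold and missed the rule in 1 sample.

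Endothelial and epithelial cells each had a pattern of their own, on 2 samples. In endothelial cells Hspb1 stood at 272 and 383 CPM, and Hspa1b, Dnajb1, Dnaja1 and Hspb1 passed the rule (4 of 10, beside 20.1% of all genes lower and 18.9% higher in macrophages). In epithelial cells Hspb1 was at 3.87 CPM in sample 2 and 1.08 in sample 4, on 15 and 4 UMIs. Macrophages had 1.96 and 4.22 CPM in these samples, so the direction differed between them. There the mitochondrial pair passed the rule, with Hspd1 at 526 and 176 CPM and Hspe1 at 649 and 224 CPM, together with Dnajb1 at 307 and 483 CPM (3 of 9, beside 24.7% of all genes lower and 30.2% higher in macrophages). Epithelial levels of samples 2 and 4 were also far apart. Of 8 members at 50 CPM or more, 5 differed 2-fold between the 2 samples, each higher in sample 2, beside 7.02% of all genes. These were Hspa1b, Hsph1, Hsp90aa1, Hspd1 and Hspe1, and Hsph1 had the widest gap, at 107 and 21.2 CPM.

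Neutrophils were the class with the least of most chaperones. Hspa8 was at 128, 192, 145 and 113 CPM in neutrophils, 5.03-fold to 7.97-fold below macrophages. Hspe1 was at 11.2, 49.95, 10.9 and 7.45 CPM, 4.26-fold to 17.8-fold below, and Hspd1 at 6.64, 18.2, 8.18 and 9.46 CPM, 4.83-fold to 11.3-fold below. Hsp90aa1 was at 114, 184, 128 and 131 CPM, 2.42-fold to 3.65-fold below. These 4 of 7 members were higher in macrophages in every sample, beside 32% of all genes higher and 9.73% lower. Hspd1 and Hspe1 stayed under 50 CPM in neutrophils, so only a higher call was possible for them. Hspa1a, Hspa1b and Dnaja1 did not pass. Hspa1a was higher in macrophages by 1.92-fold to 17.5-fold, and Hspa1b was lower in macrophages in sample 1, at 0.530 on the macrophage-over-neutrophil ratio. Dnaja1 was at 159, 189, 150 and 120 CPM in neutrophils, a ratio of 0.834 to 1.20. CPM describes shares of the transcripts a class holds and not copies per cell.

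**Figure D4:**
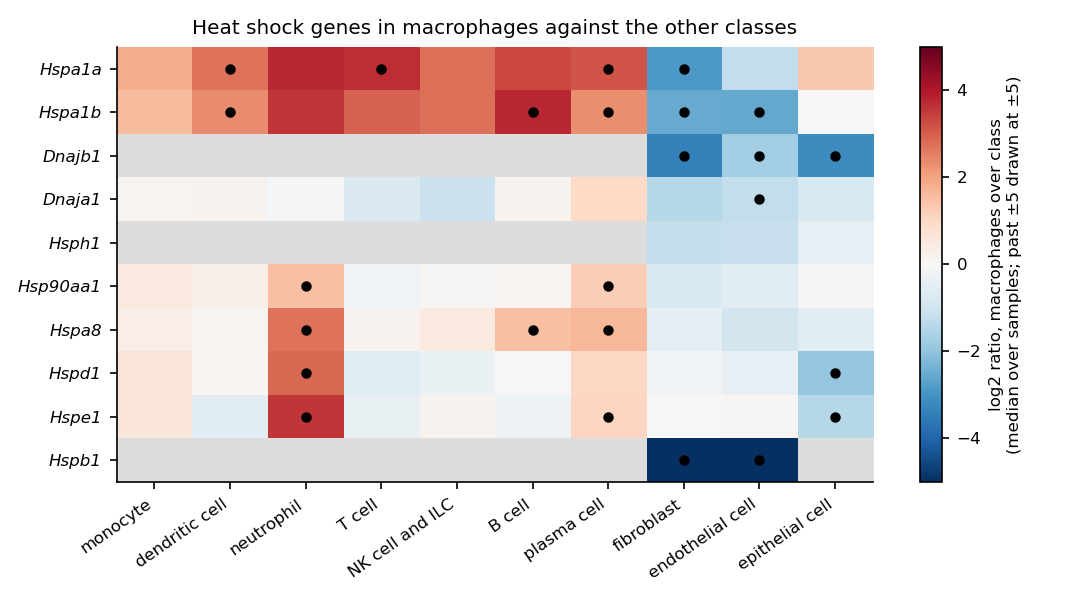
Median over samples of the log2 ratio of CPM in macrophages over each class, with red where macrophages were higher; dots mark pairs that passed 2-fold the same way in every sample, and grey pairs stayed under 50 CPM. Colour stops at a log2 ratio of 5 either way, which Hspb1 in fibroblasts and endothelial cells exceeds.

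Other leukocytes, apart from plasma cells, had fewer members past 2-fold against macrophages than neutrophils had. Hspa1a and Hspa1b reached 50 CPM in macrophages of sample 2 alone, so for them only a higher call in macrophages was possible here. No member passed the rule against monocytes (0 of 7, beside 1.89% of all genes higher and 1.06% lower in macrophages) or against NK cells and ILC (0 of 7, beside 13.2% and 9.33%), although Hspa1a was higher in macrophages than in monocytes in all 4 samples, by 1.61-fold to 8.78-fold. Monocyte Hspa1a was at 5.26, 7.64, 10.6 and 10.2 CPM. Hspa1a and Hspa1b passed against dendritic cells (2 of 7, beside 11.7% of all genes higher and 7.74% lower), on as few as 2 and 1 UMIs in dendritic cells of sample 1. Hspa1a alone passed against T cells, at 2.75, 7.19, 1.56 and 2.11 CPM there (1 of 7, beside 14.2% higher and 9.96% lower). Hspa1b and Hspa8 passed against B cells (2 of 7, beside 16.4% higher and 8.98% lower), where Hspa8 was at 372, 394, 304 and 238 CPM. For Hspa1b this rested on 3 and 2 UMIs in B cells of samples 3 and 4. Plasma cells, whose transcripts are mostly immunoglobulin, were lower in 5 of 7 members on 2 samples, beside 51.2% of all genes higher and 5.94% lower in macrophages. T cells and NK cells with ILC had more Dnaja1 than macrophages in every sample, at 209 to 301 and 271 to 344 CPM, by 1.55-fold to 2.14-fold and 1.83-fold to 2.45-fold.

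In sample 2, macrophages that carried Hspa1a or Hspa1b had higher levels of Dnajb1, Hsph1 and Dnaja1, and in sample 4 the ratios were above 1 with wider error. Of the further cochaperones, 0 of 7 on the HSP70 and HSP90 list (median ratio 1.21) and 0 of 6 other HSP40 genes (1.16) passed 2-fold. The comparison needed at least 50 thinned macrophages on each side and could be made in sample 2 (149 with and 1373 without a UMI of Hspa1a or Hspa1b) and in sample 4 (91 and 1333). Dnajb1 was at 134 CPM in cells with and 39.3 in cells without in sample 2, a ratio of 3.41 (1.94 to 5.80). In sample 4 it was at 76.9 and 34.5 CPM, a ratio of 2.23 (0.849 to 4.97). Hsph1 had ratios of 4.74 (2.53 to 8.60) and 2.31 (0.438 to 7.86), the latter on 3 UMIs in the positive cells. These 2 of 7 members passed 2-fold in both samples, beside 1.8% of all genes higher and 1.64% lower, but the intervals of sample 4 include equality. Each reached 50 CPM through the positive cells, so only a higher call was possible. The steadier excess was that of Dnaja1, with ratios of 1.79 and 1.82, of Hsp90aa1, with 1.54 and 1.70, and of Hspa8, with 1.38 and 1.38, and all 6 of these intervals lay above 1. Hspd1 (1.29 and 1.22) and Hspe1 (0.751 and 0.897) had intervals that included equality in both samples, so no difference in the mitochondrial pair was detectable at this depth.

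**Figure D5:**
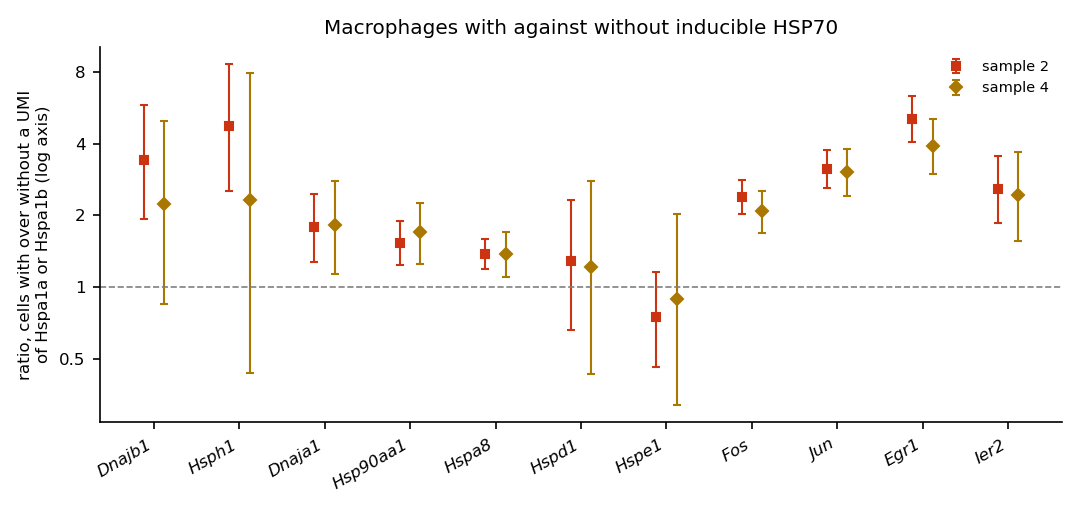
Ratio of CPM in macrophages with over without a UMI of Hspa1a or Hspa1b, thinned to 1000 UMIs per cell (log axis), in samples 2 and 4, with 95% intervals for counting error; the dashed line marks equality. Dnajb1, Hsph1, Dnaja1, Hsp90aa1 and Hspa8 lie above the line in both samples, as do the immediate early genes Fos, Jun, Egr1 and Ier2.

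At 2000 UMIs per cell sample 3 entered as well, with 80 positive macrophages, and no member passed 2-fold in all 3 samples. Dnajb1 then had ratios of 4.83, 2.51 and 1.76 in samples 2, 3 and 4, and Hsph1 of 4.47, 1.96 and 2.79. The interval included 1 for Dnajb1 in sample 4 and for Hsph1 in sample 3. Dnaja1 had ratios of 2.19, 1.24 and 1.36, with intervals that included 1 in samples 3 and 4. In sample 3 Hsp90aa1 (0.909) and Hspa8 (1.05) had intervals that included 1, and so did Hsp90aa1 in sample 4 (1.06), whereas Hspa8 kept an excess of 1.43 in sample 2 and 1.52 in sample 4. Hspe1 in sample 2 went from 0.751 at 1000 UMIs to 1.45 (1.18 to 1.78), so its direction there depended on depth.

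Immediate early genes, many of them for transcription factors, are switched on within minutes of a stimulus or of handling. Some were also higher in these macrophages. In the positive cells 4 of 13 passed 2-fold in samples 2 and 4, beside 1.8% of all genes higher and 1.64% lower. These were Egr1 (5.08 and 3.90), Jun (3.14 and 3.04), Fos (2.40 and 2.08) and Ier2 (2.59 and 2.44). The median ratio over the list was 1.94 against 0.995 over all genes. The positive cells differed in genes from the marker lists of macrophages and of other lineages too. Of the resident markers, Lyve1 (median ratio 6.15), Folr2 (4.29) and Cx3cr1 (2.91) passed 2-fold in both samples. The rest of the resident list, with Mrc1 and Cd163, was not among the genes that passed. Marco (4.44) passed as well. So did Cd4 (3.16), from the T cell list held out from gating, and Mcpt1 (23.7), a gate marker of mast cells and basophils. Whether macrophages themselves transcribed Cd4 was not tested. The largest median ratios of all were those of Pck1 (55.9) and Cfd (41.2). The 2 samples gave ratios of 9.21 and 103 for Pck1, 9.21 and 73.2 for Cfd, and 3.42 and 43.9 for Mcpt1. In 149 and 91 positive cells of 1000 UMIs such ratios can rest on few UMIs, so their size is not read. The part of RNA from other cells in these ratios was not tested. These genes were chosen here after their values were seen. The part of this difference in the ratios above was not tested. Between samples the 13 genes summed to 4615, 6483, 5795 and 8145 CPM in macrophages. The sum was lowest in sample 1 as for Hspa1a, but highest in sample 4 and not in sample 2. Single genes were split on this. Jun (207, 418, 227 and 364 CPM), Ier2 (82.7, 145, 83.7 and 119 CPM), Fosb, Atf3, Btg2 and Nr4a1 were highest in sample 2. Jund, Dusp1, Junb, Zfp36, Fos, Ier3 and Egr1 were highest in sample 4. Jund (1043, 1558, 1253 and 1981 CPM) and Dusp1 (668, 751, 1588 and 1947 CPM) were the most abundant with Junb (712, 853, 561 and 861 CPM). Fosb, Jun, Egr1, Btg2, Dusp1 and Nr4a1 had ranges of 2-fold or more (6 of 13, beside 17.9% of all genes). Their part in the HSP70 range was not tested.

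Among genes that reached 50 CPM, the rest of the chaperone system did not range as widely as Hspa1a and Hspa1b between macrophages of the 4 samples. Sample 2 was highest for some, such as Hspa4, Hspa14 and Hsp90ab1, and not for others, such as Hspa9, Dnajb6 and Cct8. Under that minimum, Dnaja4 was at 0.850, 3.08, 1.99 and 2.41 CPM, with the samples in the order of the pair. Of the other HSP70 and HSP110 genes none of 4 that reached 50 CPM differed 2-fold, beside 17.9% of all genes. Hspa4 was at 168 to 200, Hspa9 at 139 to 169 and Hspa14 at 45.6 to 76.3 CPM. The other HSP40 genes (0 of 5), the HSP70 and HSP90 cochaperones (0 of 6) and the cytosolic TRiC chaperonin subunits (0 of 8) had median ranges of 1.21, 1.21 and 1.20, below the 1.44 of all genes. They were led by Dnajb6 (235 to 290 CPM), Dnaja2 (155 to 180) and Dnajc5 (108 to 121), by Ptges3 (178 to 211), St13 (110 to 136) and Bag1 (87.7 to 95.6), and by Cct8 (99.1 to 114), Cct2 (75.0 to 105) and Cct6a (83.4 to 88.1). Hsp90ab1, the constitutive HSP90, was at 876, 973, 537 and 639 CPM, a 1.81-fold range, and Trap1 stayed at 7.82 to 13.2 CPM. Of the factors, Hsf1, which drives the response, was at 22.4, 29.4, 18.7 and 20.7 CPM, Hsf2 at 21.4 to 47.7 CPM and the HSF1-binding Hsbp1 at 57.6 to 78.2 CPM. Small heat shock proteins other than Hspb1 summed to 2.31 to 4.28 CPM in macrophages, of which Cryab had 1.07 to 1.93, Hspb6 0.464 to 1.20 and Hspb8 0.237 to 1.03.

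Stress genes outside the heat shock response varied in a different order. Of the endoplasmic reticulum chaperones 1 of 12 differed 2-fold between samples, beside 17.9% of all genes. That was Sdf2l1, at 78.4, 54.0, 26.5 and 28.7 CPM. Hspa5, the HSP70 of that compartment, was at 634, 626, 732 and 945 CPM, Hsp90b1 at 400 to 557 and Calr at 327 to 524 CPM. All 6 oxidative and metal stress genes that reached 50 CPM differed 2-fold, again beside 17.9% of all genes. Hmox1, which degrades haem, was at 216, 135, 901 and 548 CPM, the metal-binding Mt1 at 400, 362, 838 and 799 CPM, Mt2 at 12.6, 26.2, 100 and 92.9 CPM and the thioredoxin reductase Txnrd1 at 579, 321, 727 and 623 CPM, with Srxn1 at 61.2 to 150 CPM and Gclm at 37.4 to 163 CPM. Sample 2, highest for Hspa1a and Hspa1b, was lowest for Hmox1, Mt1, Txnrd1, Srxn1 and Gclm. Ahr itself was at 173, 135, 130 and 141 CPM.

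The neutrophil and fibroblast differences extended to these lists. All 8 TRiC subunits and 12 of 12 endoplasmic reticulum chaperones were at least 2-fold higher in macrophages than in neutrophils in every sample, beside the 32% of all genes given above, as were 5 of 6 HSP70 and HSP90 cochaperones (Bag1, Bag3, Stip1, Ptges3 and St13) and Hsp90ab1. Against fibroblasts, 0 of 8 TRiC subunits and 0 of 13 endoplasmic reticulum chaperones differed. The genes lower in macrophages were Dnajb4 (109 to 177 CPM in fibroblasts), Bag3 (241 to 294 CPM), and the small heat shock proteins Hspb8 (75.1 to 109 CPM) and Cryab (57.5 to 196 CPM). Among immediate early genes 6 of 13 were also lower in macrophages than in fibroblasts, beside 18.9% of all genes: Fosb, Jun, Egr1, Ier2, Btg2 and Nr4a1, so fibroblasts had more of these as well as of Hspa1a. Mt1 and Mt2 were lower in macrophages as well (2 of 6).

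The genes whose pattern was most like that of Hspa1a and Hspa1b were not chaperones. Likeness was the Pearson correlation of log2(CPM + 1) with that of the summed pair over 38 points of class and sample, after each class mean was subtracted, among 7882 genes. The points share libraries, so r is a description. The 10 nearest were Hdac9 (r = 0.69), Pnrc1, Apoe, Prkacb, Fryl, Zmat4, Cd72, Gm34455, Mbd2 and Psd3 (r = 0.63). In macrophages Hdac9 was at 24.5, 136, 17.8 and 28.3 CPM, and Psd3 at 32.8, 129, 36.0 and 93.0 CPM, each highest in sample 2. Apoe was one of the genes that split macrophages from monocytes. Of the members, Dnaja1 ranked 245 (r = 0.42) and Hspb1 510 (0.35), then Hsph1 558 (0.34) and Dnajb1 804 (0.30), while Hsp90aa1, Hspd1 and Hspa8 had r of 0.08, 0.07 and 0.01. Without subtracting class means none of the 10 was shared with the new nearest 10, led by Gas6 (r = 0.88) and Fblim1 (0.88), and Hspb1 and Dnajb1 moved to ranks 41 and 130.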

How the data were processed

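Raw UMI counts per gene and cell were deposited by the authors, without normalization, for 4 samples of colonic CD45+ leukocytes. Headers of the deposited matrices name Cell Ranger 7.0.1, and the submitters' processing notes name Cell Ranger 5.0.0, STAR, Seurat and mm10. Of 32285 gene identifiers, 32158 were found in GENCODE M21 on GRCm38. The members and lists were chosen with earlier results of these data known.

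Cells with at least 200 genes and under 20% mitochondrial UMIs were gated by markers, UMIs were summed by class and sample, and CPM was given exact Poisson intervals, ratios exact conditional binomial intervals and shares exact binomial intervals at 95%. Samples are unassigned, so no test was run. A count of 0 was set at 3 counts in ratios, and ratios entered counts at 50 CPM in at least 1 value. No doublet caller was run, and mixed cells were left out. Steps were tested on simulated data, where most simulated doublets of a macrophage and a B cell passed as macrophages; the stricter selection of cells was added for this reason. In the same simulation it removed those doublets but also every single macrophage, so it was not shown to tell them apart. One symbol held by 2 rows, that of an endoplasmic reticulum stress gene, was left out. Named genes are all members, the 3 most abundant of each list and those passing 2-fold, and the 10 genes nearest the HSP70 pair. Tools were Python 3.11.15, numpy 2.4.6, scipy 1.17.1, pandas 2.3.3 and matplotlib 3.10.9.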

Additional observations from a re-analysis of the deposited data

How the results depend on the processing

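No paired analysis was possible because the labels put no sample in a group. In macrophages, 3 members differed 2-fold between samples, and so did 1 without the 5% of cells highest in Hspa1a and Hspa1b, 1 among macrophages with under 2 resident markers (chosen after seeing the data) and 1 to 3 with a sample left out. Without sample 2 that 1 is Hspe1, since Hspa1a and Hspa1b then stay under 50 CPM; without sample 4 Hspe1 is lost. The range of the summed pair was 9.51-fold, 3.25-fold without sample 1, 5.49-fold without sample 2, and 5.72-fold to 22.4-fold over 11 other choices of cells or of scale, with sample 2 highest and sample 1 lowest in all 11. Members reaching 50 CPM numbered 5 to 8. Pairs of member and class past 2-fold numbered 25, and 14 without cells holding 2 markers of another lineage and 16 to 33 with a sample left out (16 without sample 2 and 16 without sample 3), where plasma, endothelial or epithelial cells can no longer be compared in 2 samples. Listed genes past 2-fold in macrophages numbered 13, and 7 to 13 with a sample left out, with 7 without sample 2. The median share of macrophages with the pair was 4.62% at 1000 UMIs, 7.21% at 2000 and 15.0% unthinned. Members passing 2-fold in cells with the pair went from 2 to 0 at 2000 UMIs, where a further sample entered. Of the 10 genes nearest the pair, 0 were shared when class means were kept. Depth limits lymphocyte values, and no genotype, mouse or batch can be told apart in 4 unassigned samples.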
